A study of Rattus norvegicus with 4 samples.

Results

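The genes described here are 9 transcription factors that set or keep the macrophage lineage: Spi1, Cebpa, Cebpb, Maf, Mitf, Tfec, Irf8, Runx1 and Klf4. They were chosen by name, and their probes were found by matching the RefSeq accession of each non-control probe to the rat gene symbol. All 9 were on the array, with 15 of its 45598 probes, among 16581 genes that could be named. Total RNA came from NR8383 cells, a macrophage line established from rat lung lavage, after 20 passages, and was hybridised to one-colour Agilent arrays. Cells seeded for 48 h received NRCWE049, carbon nanotubes carrying NH2 groups, at a dose of 1.2 cm²/cm² and an exposure time of 4 h. The 4 samples analysed here are biological replicates of that 1 exposed group, per the series' design text. The unexposed cells named in that text are not analysed here, so no value below is an effect of the nanotubes. A single cell line stands for the macrophage, and nothing below extends to lung macrophages in an animal.

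Lineage factors act in layers. Runx1 and Spi1, which encodes PU.1, open regulatory regions in blood progenitors, and C/EBP factors, Irf8 and Klf4 then turn such progenitors towards granulocytes or monocytes, as shown largely in mice. Maf helps to restrain self-renewal of mature mouse macrophages, and the MiT factors Mitf and Tfec bind E-boxes in genes of lysosomes and, for Mitf, of melanocytes and osteoclasts.

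Of the 9 factors, 7 were detected, which here means that Feature Extraction marked most spots of a probe as well above background on 4 of 4 arrays. That is 77.8% of the factors, against 52.5% of all named genes. Spi1, Cebpb, Mitf, Tfec, Irf8, Runx1 and Klf4 were detected, each with every probe. Of the 15 probes of the 9 factors 11 were detected, against a share of 51.4% among all named probes. Cebpa and Maf were detected on none of the arrays, with both of their probes. Levels are given as log2 of the deposited processed signal minus the 75th percentile of the probes detected on all arrays, so that 0 is that percentile. Levels of different probes are not set against each other, because probes differ in their response to the same amount of RNA. In a bulk sample, fewer cells with a transcript and less of it per cell cannot be told apart.

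Upstream sequences are shown for 4 factors: Cebpa and Cebpb, because they belong to 1 family and differed in detection, Tfec, whose expression in mice is largely restricted to macrophages, and Irf8, an interferon-induced factor. Each is the 250 bases before the annotated start, from RefSeq on GRCr8, written 5′ to 3′ along the gene. Of the 9 factors, 8 had an entry, and Spi1 had none. Capitals mark the letters searched for on both strands.
Cebpa, chr1:96896334-96896583, plus strand: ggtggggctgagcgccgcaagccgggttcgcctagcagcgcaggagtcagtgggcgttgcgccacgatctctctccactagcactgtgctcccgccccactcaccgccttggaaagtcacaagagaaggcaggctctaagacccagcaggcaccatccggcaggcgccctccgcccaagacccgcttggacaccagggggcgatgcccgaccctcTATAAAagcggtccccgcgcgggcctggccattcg
Cebpb, chr3:176816755-176817004, plus strand: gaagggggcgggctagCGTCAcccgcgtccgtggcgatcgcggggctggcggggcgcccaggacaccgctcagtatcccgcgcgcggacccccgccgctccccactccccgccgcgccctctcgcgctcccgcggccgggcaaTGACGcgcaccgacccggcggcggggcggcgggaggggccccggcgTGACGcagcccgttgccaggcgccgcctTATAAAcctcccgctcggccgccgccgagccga
Tfec, chr4:46146201-46146450, minus strand: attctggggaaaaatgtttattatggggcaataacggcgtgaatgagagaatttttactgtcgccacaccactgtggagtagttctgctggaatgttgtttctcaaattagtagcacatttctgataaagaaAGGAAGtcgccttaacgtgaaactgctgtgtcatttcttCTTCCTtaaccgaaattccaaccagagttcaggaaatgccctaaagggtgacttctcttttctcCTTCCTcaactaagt
Irf8, chr19:65699034-65699283, plus strand: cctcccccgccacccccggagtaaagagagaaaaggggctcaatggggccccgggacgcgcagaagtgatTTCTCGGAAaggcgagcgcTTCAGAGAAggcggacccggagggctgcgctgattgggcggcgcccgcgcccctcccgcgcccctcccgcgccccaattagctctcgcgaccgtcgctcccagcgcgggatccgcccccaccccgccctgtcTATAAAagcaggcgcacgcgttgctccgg
The capitals spell TATAAA, the core promoter element read by the TATA-binding protein, in Cebpa, Cebpb and Irf8. In Cebpb they also spell TGACG, the core of the cyclic AMP response element, which CREB proteins bind. In Tfec they spell AGGAAG, a core bound by ETS factors. In Irf8 they also spell TTCNNNGAA, the form of the elements that STAT factors bind after interferon-gamma.

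The TATAAA match began 35 bases before the start in Cebpa, 33 in Cebpb and 29 in Irf8, Klf4 had it on the reverse strand at 146 and 78 bases, and the motif occurred in 12.9% of 33469 upstream windows of that length. Cebpb held 3 TGACG matches, beginning 234, 107 and 61 bases before the start, the first of them on the reverse strand. Cebpa held none of these. TGACG was in 1 of the 8 windows of the factors, and 18.2% of all windows had at least 1. Tfec held 3 AGGAAG matches, at 118, 79 and 15 bases, the last pair on the reverse strand. AGGAAG was in this 1 of the 8 windows, and 29.5% of all windows had at least 1. Irf8 held TTCNNNGAA at 180 and 161 bases, Mitf at 142 and Klf4 at 126, so 3 of the 8 windows had it, against 7.67% of all windows. The E-box letters CACGTG, searched because MiT factors bind them, were in none of the 8 windows and in 5.59% of all. The related letters CATGTG were in 1 of the 8, Runx1, at 214 bases, and in 12.1% of all. CCAAT was in Maf and Irf8 and in 34% of all. None of these letters overlapped another marked motif. A match describes the letters only.

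Spi1 encodes PU.1, the ETS factor on which mouse myeloid cells depend. Its only probe, A_44_P433783, read processed signals of 3816, 3551, 3946 and 5223 in replicates 1 to 4. After scaling, its levels were 0.95, 0.84, 0.66 and 1.12, a mean of 0.89 ± 0.19 (SD, n = 4). Replicate 4 was highest and replicate 3 lowest, with 1.37-fold between them. Whether a gene varied more than its level predicts was tested by fitting a mean to each of 8713 detected genes with limma and comparing the residual variance with the intensity trend of the prior variance. For Spi1 this gave an adjusted p of 0.969 (limma, Benjamini-Hochberg over all genes tested).

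Runx1, which in mice lies upstream of Spi1 in the emergence of blood cells, had 2 probes. The probe A_44_P228942, printed at 10 places on each array, read 1.09, 1.30, 1.49 and 1.43, a mean of 1.33 ± 0.17 (SD, n = 4), with replicate 1 lowest. The lowest and the highest replicate were 0.39 apart, and the copies within 1 array had an SD of 0.05 to 0.06. The adjusted p for variation between replicates was 0.969 (limma). The other probe, A_44_P700588, read -3.30, -3.19, -3.42 and -3.41, a mean of -3.33 ± 0.11 (SD, n = 4), with replicate 2 highest. The 2 probes therefore differed in which replicate was high, by at most 0.27 in any replicate.

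The C/EBP pair divided at detection. Cebpa encodes C/EBPα, which mouse progenitors need to enter the granulocyte and monocyte path. Its probe A_64_P025108 read processed signals of 4.05, 5.85, 4.96 and 4.94, and A_44_P1088296 read 6.39, 5.29, 5.09 and 5.09. The lowest signal well above background was 16.6 to 20.1 on these arrays, and the deposited error of the Cebpa signals was 76.1 to 101% of the signal. Under the looser flag for a positive and significant signal, each probe passed on 2 arrays. Cebpa was thus not detectable at this signal over background, which does not show that its RNA was absent.

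Cebpb encodes C/EBPβ, a factor of macrophage activation. Its probe A_64_P025118, spotted 10 times per array, read signals of 32200, 34064, 40828 and 40951, far above background on every array. After scaling, the levels were 4.03, 4.10, 4.03 and 4.09, a mean of 4.07 ± 0.04 (SD, n = 4), so the replicates lay within 1.05-fold of each other. The copies within 1 array had an SD of 0.05 to 0.07. Its SD stood at the 5th percentile of the 500 probes nearest in level, and the variance test gave an adjusted p of 1 (limma). Those 500 probes were picked by level and not by number of spots, and the part of averaging 10 spots was not tested. This narrow spread depends on the scaling. The SD was 0.12 with quantile normalization and 0.13 with the median over all probes. It was 0.02 with the 75th percentile over all probes and 0.03 with normexp background correction. The other Cebpb probe, A_44_P348922, read 0.58, 0.33, 0.24 and 0.74, a mean of 0.47 ± 0.23 (SD, n = 4), with replicates 4 and 1 above 2 and 3. Its SD stood at percentile 89.8 of the 500 probes nearest in level. Its 1.41-fold range is therefore not shared by the 10-copy probe, and the largest difference between the 2 in any replicate was 0.24, near the median of 0.21 over 1410 genes with 2 detected probes.

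**Figure D1:**
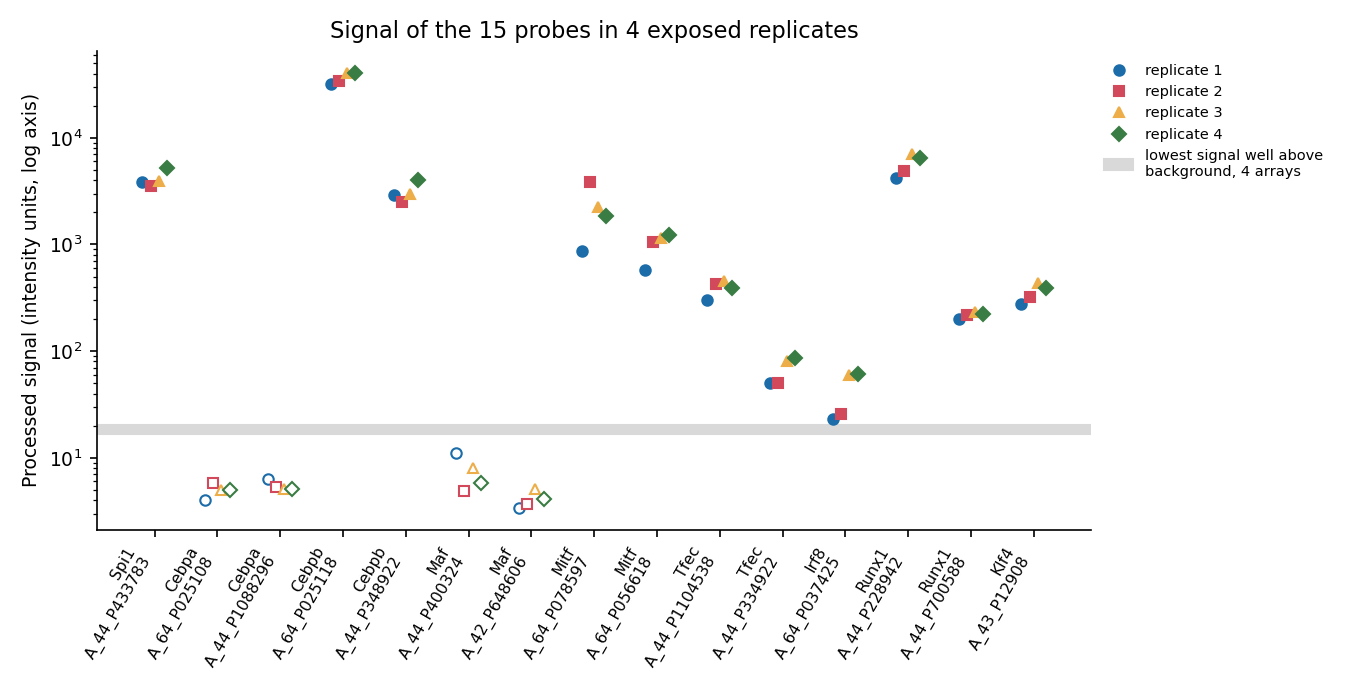
Processed signal (log axis, intensity units) of the 15 probes, with 1 symbol per replicate. Filled symbols are probes detected on 4 of 4 arrays, open symbols are the Cebpa and Maf probes, and the grey band spans the lowest signal well above background on the 4 arrays, 16.6 to 20.1; the open symbols all lie below it.

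Maf encodes c-Maf, a basic leucine zipper factor of mature macrophages. Its probe A_44_P400324 read signals of 11.01, 4.84, 7.97 and 5.86, and A_42_P648606 read 3.38, 3.69, 5.13 and 4.07. All 8 values lay under the lowest signal well above background, with errors of 40.2 to 100% of the signal. The positive and significant flag held for the first probe on 2 arrays and for the second on 1. Maf was thus not detectable at this signal over background. Of 5 genes known as targets of Maf factors (Il10, C1qa, C1qb, C1qc and Cd163), 0 were detected, and none was on any single array. Under the looser flag C1qa and C1qb passed on 4 arrays, Il10 on 3 and C1qc and Cd163 on 1 each. The share of all named genes under that flag is not given here.

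Mitf encodes the MiT factor best known as the regulator of melanocytes, which also acts in osteoclasts and mast cells. Its probe A_64_P078597 read signals of 864, 3838, 2240 and 1834, each with a deposited error of 10.0%. The Spi1 probe and both Cebpb probes also had 10.0% on every array, so this error is not particular to the Mitf spot. The levels of A_64_P078597 were -1.19, 0.95, -0.15 and -0.39, a mean of -0.19 ± 0.88 (SD, n = 4). Replicate 2 was highest and replicate 1 lowest, 4.42-fold apart. The SD was the largest among the 7 detected factors, but without replicate 2 it was 0.54, under the 0.62 of Irf8, and the range of the Mitf levels was 1.02 in place of 2.14. The SD stood at percentile 99.4 of the 500 probes nearest in level.

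The other Mitf probe, A_64_P056618, matched the same RefSeq transcript and read signals of 579, 1060, 1152 and 1233. Its levels were -1.77, -0.90, -1.11 and -0.96, a mean of -1.19 ± 0.40 (SD, n = 4). Replicate 1 was again lowest, by 1.82-fold against the highest, but replicates 2, 3 and 4 lay within 0.22 of each other. The SD stood at percentile 97.6 among probes of like level. As deviations from its own mean, A_64_P078597 was at -0.99, 1.15, 0.04 and -0.20 in replicates 1 to 4, and A_64_P056618 at -0.58, 0.29, 0.07 and 0.22. Both probes thus put replicate 1 lowest, and the high value of replicate 2 was large in 1 of them. The difference between the deviations was -0.41, 0.86, -0.03 and -0.42, and the largest of these, 0.86, stood at percentile 98.4 of the 1410 genes with 2 detected probes.

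In the test over all genes, Mitf had a raw p of 0.000207 for variation between replicates, rank 7 of 8713, and an adjusted p of 0.233 (limma, Benjamini-Hochberg), so it did not pass the threshold of 0.05. It did pass when the 75th percentile was taken over all probes (0.0397), without replicate 3 (0.049) and without replicate 4 (0.0171), and did not without replicate 1 (0.928) or 2 (0.953). Tested probe by probe, A_64_P078597 had a raw p of 0.000157 and an adjusted p of 0.165, and A_64_P056618 had 0.0182 and 0.978 (limma). Of 10858 detected probes, 4.4% had a raw p under 0.05 and 0.00921% passed after adjustment. The spots around A_64_P078597 had a median deviation of 0.11, 0.04, -0.03 and -0.10 in replicates 1 to 4, and those around A_64_P056618 one of 0.07, 0.11, -0.06 and -0.06. Single neighbours in replicate 1 went down to -0.67 and -0.62, and the part of position in the Mitf values was not tested.

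**Figure D2:**
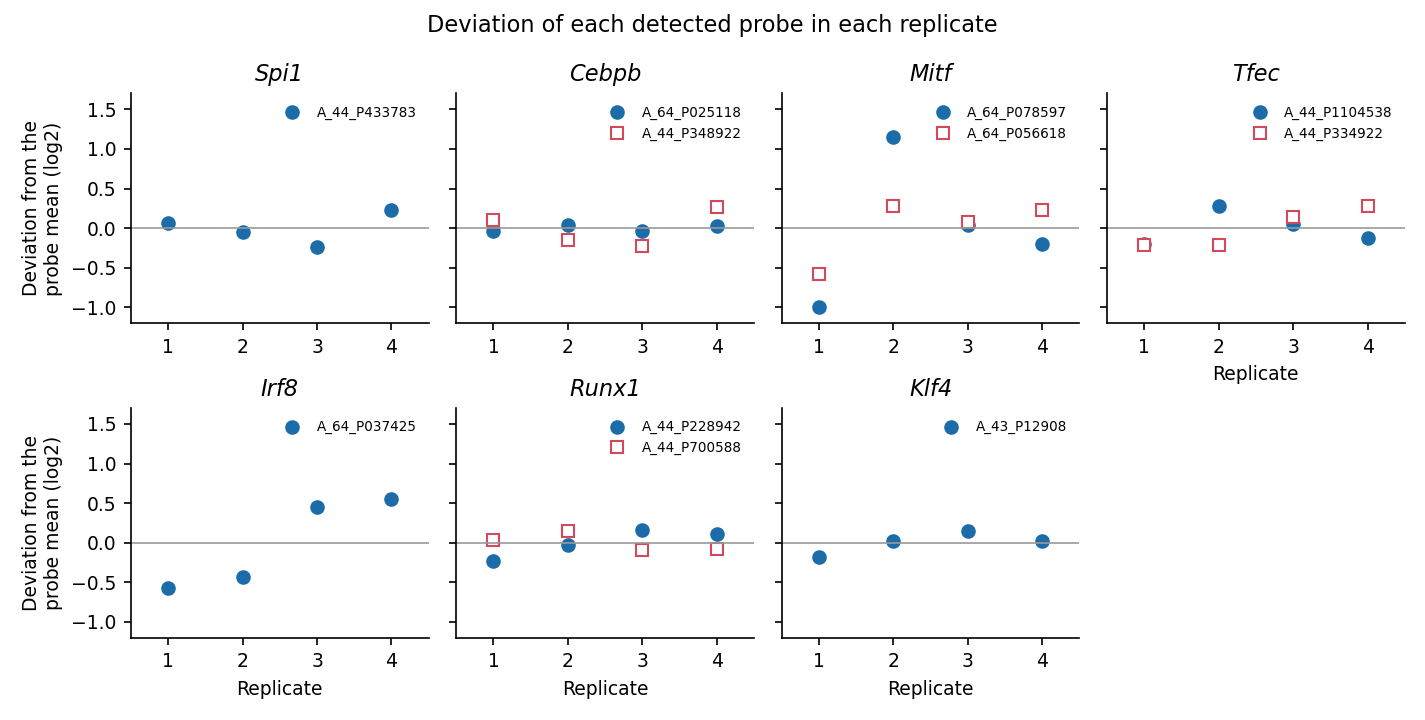
Deviation of each detected probe from its own mean over 4 replicates (vertical axis, log2), by replicate, in 1 panel per gene, with filled circles for the probe whose level stands for the gene and open squares for a further probe. The circles of Mitf run from -0.99 in replicate 1 to 1.15 in replicate 2, and those of Cebpb stay within 0.04 of 0.

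Tfec, the MiT relative of Mitf, had 2 detected probes. A_44_P1104538 read -2.71, -2.23, -2.46 and -2.63, a mean of -2.51 ± 0.21 (SD, n = 4), with replicate 2 highest and replicate 1 lowest, as for Mitf. The range was 1.40-fold, and the adjusted p for variation was 0.971 (limma). A_44_P334922, with signals of 49.9, 50.4, 81.3 and 85.9, read -5.30, -5.30, -4.94 and -4.81, so here replicates 3 and 4 lay above 1 and 2. The 2 probes, which matched different RefSeq transcripts, differed most in replicate 2, by 0.49. That stood at percentile 89.6 of the 1410 genes with 2 detected probes.

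Irf8, a partner of PU.1 that mouse monocytes and some dendritic cells need, was detected close to the limit on arrays 1 and 2. Its only probe, A_64_P037425, read signals of 23.1, 25.6, 59.7 and 61.5, against a lowest signal well above background of 16.6, 18.0, 20.1 and 20.1 on the same arrays. The deposited errors were 4.13, 4.43, 7.20 and 7.34 in the same units. The levels were -6.42, -6.27, -5.38 and -5.29, a mean of -5.84 ± 0.59 (SD, n = 4), with replicates 3 and 4 above 1 and 2 and 2.19-fold between the ends. The raw p for variation was 0.0476 and the adjusted p 0.969 (limma). Arrays 3 and 4 were brighter in all, with a 75th percentile of 2493 and 2403 against 1970 and 1980 for arrays 1 and 2, and the part of that in the Irf8 values was not tested. Probes of like level had a median deviation of 0.04, 0.03, -0.07 and 0.01, and with another background correction (normexp, offset 50) the range of the Irf8 level was 0.31 on the log2 scale in place of 1.13.

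Klf4, a zinc-finger factor of monocyte differentiation in mice, had 1 probe, A_43_P12908, with signals of 276, 320, 440 and 387. Its levels were -2.84, -2.63, -2.50 and -2.63, a mean of -2.65 ± 0.14 (SD, n = 4). Replicate 1 was lowest and replicate 3 highest, 1.26-fold apart. The adjusted p for variation was 0.989 (limma).

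Of the 7 factors tested, 0 passed the variance test after adjustment, and Mitf and Irf8 had a raw p under 0.05. In the background of all 8713 detected genes 4.3% had such a raw p, and 1 gene passed after adjustment (0.0115%). That gene was Selenop, which encodes a secreted selenium carrier and was named after its value was seen (SD 2.22, adjusted p 0.0387, limma). The median SD was 0.19 for the 7 detected factors and 0.15 for all detected genes. By replicate, the median deviation of the factors was -0.21, 0.02, 0.05 and 0.03, against 0.02, -0.01, -0.01 and 0.01 over all genes. The 7 lists of their relatives also had a median under 0 in replicate 1, from -0.35 for other Krüppel-like factors to -0.08 for the C/EBP list. Neutrophil markers (2 detected genes) stood at 0.45 and T, NK and B cell markers (4) at 0.25. Lung epithelial markers (1) stood at 0.23 and C/EBP targets (5) at 0.22. The remaining lists with a detected gene ran from -0.11 for fibroblast and endothelial markers to 0.10 for PU.1 targets. In replicate 1 only 1 of the 7 factors, Spi1, lay above its own mean, and in replicates 2, 3 and 4 it was 4, 5 and 5 of them. These counts and medians are for the brightest detected probe of each gene. In replicate 1 the other probes of Cebpb (0.11) and Runx1 (0.03) lay above their means, and those of Mitf (-0.58) and Tfec (-0.22) below.

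**Figure D3:**
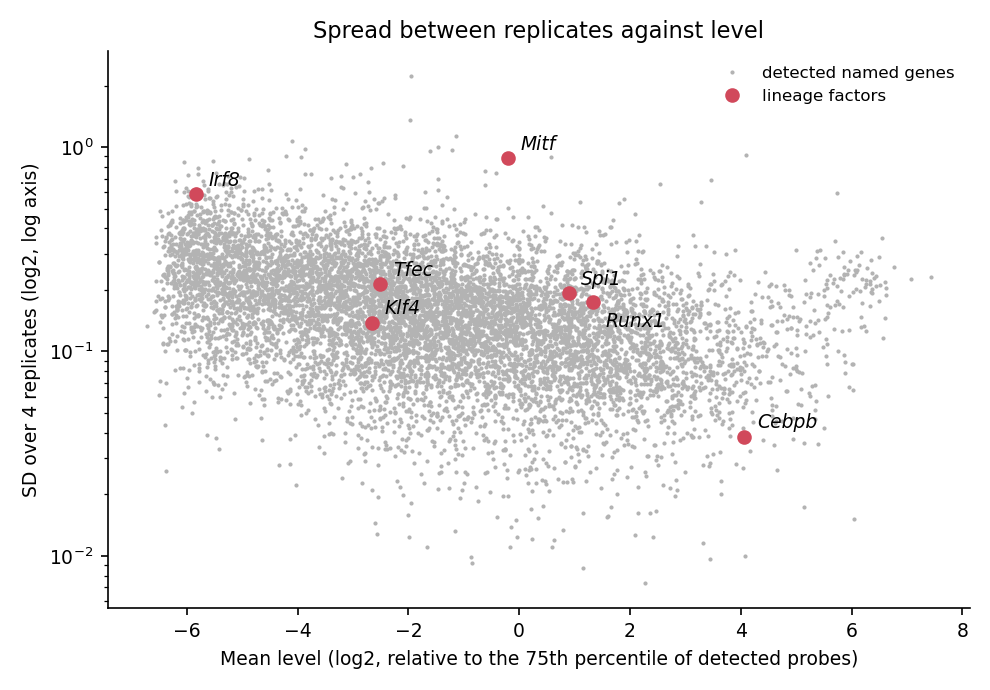
SD over the 4 replicates (log axis, log2 units) against mean level (log2, relative to the 75th percentile of detected probes) for the 8713 detected named genes in grey and the 7 detected factors in red. Mitf, at an SD of 0.88, lies near the upper edge for its level and Cebpb, at 0.04, near the lower edge.

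Relatives of the factors are given by family, and their counts can be read against the 52.5% of all named genes that were detected. Here and below, detection and level are those of the brightest detected probe of a gene. Where a gene had further probes, the mean level over all of them could be much lower, as -4.94 for Irf2, -1.78 for Tfe3 and -2.50 for Fli1. Among other ETS factors 13 of 17 measured genes were detected, with Ets2 at 1.19 ± 0.29, Fli1 at 0.16 ± 0.15 and Elf1 at -3.78 ± 0.39 (level, SD, n = 4 here and below), and Spib, Ets1, Erg and Ehf were not. All 5 other genes of the C/EBP list were detected, among them Cebpd, an acute-phase factor, at 1.07 ± 0.15, Cebpe, known from granulocyte maturation, at -0.99 ± 0.19 and Cebpg at 0.55 ± 0.10. Set beside these 5 and Cebpb, Cebpa was thus the gene without a detected probe. Of 4 other Maf factors 3 were detected, the small Maf factors Maff at -2.74 ± 0.68, Mafg at 0.50 ± 0.19 and Mafk at -4.08 ± 0.25, and Nrl, a photoreceptor factor, was not. Both other MiT factors were detected, Tfe3 at 1.71 ± 0.24 and Tfeb at -1.34 ± 0.13, which regulate lysosome genes.

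All 7 other interferon regulatory factors examined were detected, with Irf1 at 0.23 ± 0.15, Irf2 at -1.30 ± 0.18 and Irf3 at 1.25 ± 0.03. The RUNX list gave 2 of 4, Runx2 at -3.50 ± 0.48 and Cbfb, the shared partner of RUNX proteins, at -2.42 ± 0.08, without Runx3 and Runx1t1. Of 11 other Krüppel-like factors 8 were detected, with Klf1 at -5.80 ± 0.74, Klf3 at -2.84 ± 0.23 and Klf6 at -0.55 ± 0.28, and Klf2, Klf5 and Klf15 were not. A list of other regulators of macrophages and myeloid cells had 16 of 19 detected, with Bhlhe40 at -1.98 ± 0.25, Zeb2 at -0.99 ± 0.43 and the oxysterol receptor Nr1h3 at 2.76 ± 0.15. It lacked Gata6, the factor of peritoneal macrophages in mice, Gfi1, a granulocyte factor, and Bach2. No gene of these families passed the variance test after adjustment.

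The known targets of the factors are given by factor, with no test of a difference between lists. For PU.1, 8 of 10 targets were detected, with the growth factor receptors Csf1r at -1.28 ± 0.13 and Csf2ra at 0.24 ± 0.12 and the integrin Itgam at -1.69 ± 0.50, whose replicates 3 and 4 (-1.21 and -1.30) lay above 1 and 2 (-2.08 and -2.17). Csf3r and Cybb were not detected, Cybb passing on 1 array. For C/EBP factors, 5 of 8 were detected, with lysozyme Lyz2 at 6.43 ± 0.23, Il1b at 1.42 ± 0.28 and Arg1 at -1.39 ± 0.52, and Csf3r, Elane and Il6 were not. For MiT factors, 11 of 12 lysosome and osteoclast targets were detected, among them Acp5 at -5.46 ± 0.23, Gpnmb at 5.54 ± 0.09 and Atp6v0d2 at -3.17 ± 0.28, with Ctsk, the collagenase of osteoclasts, as the exception. For IRF8, 2 of 6 were detected, the cytokine Il18 at 0.19 ± 0.20 and the protease inhibitor Cst3 at 2.48 ± 0.06, and Cybb, Il12a, Il12b and Nos2 were not. Under the looser flag on 4 arrays, 4 of the 6 passed, and the share of all named genes under that flag is not given here. These targets are known from other cells and mostly from mice, and detection of a target does not measure the activity of its factor.

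**Figure D4:**
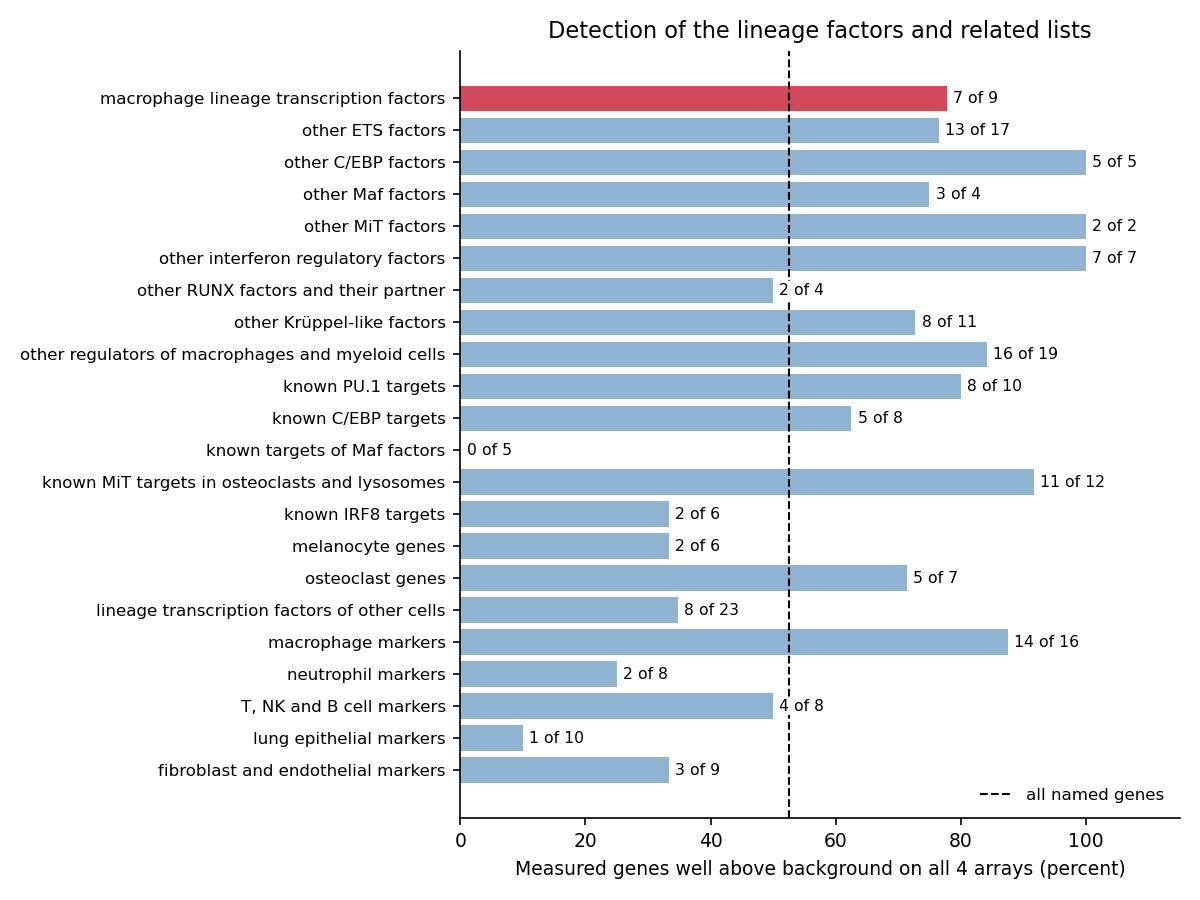
Share of measured genes detected on 4 of 4 arrays (percent, bars) in the 9 factors (red) and 21 related lists (blue), with counts beside the bars and a dashed line at the 52.5% of all named genes. The lists of targets of Maf factors (0 of 5) and lung epithelial markers (1 of 10) are at the low end.

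The labelled cell type was checked against marker genes, again beside 52.5% of all named genes detected. Of 16 measured macrophage markers 14 were detected, with the lysosomal protein Cd68 at 3.04 ± 0.09, and Adgre1 and the scavenger receptor Marco, both in common use as macrophage markers, were on no array. Neutrophil markers gave 2 of 8, S100a8 at -5.14 ± 0.48 and Camp at 0.44 ± 0.15, without S100a9, Elane, Ltf, Ngp, Csf3r and Cxcr2. T, NK and B cell markers gave 4 of 8, with Cd3d at -4.78 ± 0.14, Cd4 at -3.69 ± 0.45 and Lck at -4.00 ± 0.21, and Cd3e, Cd3g, Cd8a and Cd79b were not detected. Cd4 is also found on rat macrophages. Lung epithelial markers gave 1 of 10, Foxj1 at -3.77 ± 0.23, with Sftpc, Sftpb, Scgb1a1 and Epcam first among those not detected. Fibroblast and endothelial markers gave 3 of 9, Pecam1 at -1.08 ± 0.16, Cdh5 at -5.02 ± 0.17 and Vwf at 1.87 ± 0.15, without Col1a1, Col1a2, Pdgfra, Dcn, Lum and Kdr. Under the looser flag on 4 arrays, 2 epithelial and 5 fibroblast and endothelial markers passed. The 52.5% is for the stricter flag and does not apply to these counts. As a mean over all probes of the gene, the level was -5.98 for Cd4, -5.21 for Foxj1 and -1.35 for Vwf.

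The genes of other Mitf-dependent cells were mixed. Melanocyte genes gave 2 of 6, Mlana at -4.29 ± 0.37 and Sox10 at -5.69 ± 0.20, and the pigment genes Tyr, Tyrp1 and Slc45a2 and the receptor Kit were not detected. Osteoclast genes gave 5 of 7, with Oscar at -5.31 ± 0.27 and Nfatc1, the osteoclast factor, at 1.77 ± 0.14 beside Acp5, and without Ctsk and Calcr. Factors that set other lineages were detected in 8 of 23 cases (34.8%), with the B cell factors Pax5 at -2.73 ± 0.11 and Ebf1 at -3.64 ± 0.24 and the T cell factor Tbx21 at 3.79 ± 0.20. Gata1, Gata3, Bcl11b and Foxp3 were first among those not detected. Over the 21 lists, 109 of 179 measured genes were detected (60.9%), against 52.5% of all named genes. Of those detected, 15 (13.8%) had a raw p under 0.05 for variation, against 4.3% of all detected genes, and 0 an adjusted one (limma). The lists were chosen with earlier results of these data known, so these shares are not independent of those results.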

How the data were processed

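Intensity values were the background-corrected processed signals that the authors deposited, written by Agilent's Feature Extraction (version 11.0.1.1 in the submitters' processing notes). The file headers name build rn4. Whether the authors normalized the arrays to each other is unstated in those sources. Each of the 4 arrays held 62976 spots, 4259 of them controls, 0 saturated and 537 to 722 with outlier flags, and lay with the others on 1 slide scanned once, so slide position and replicate cannot be told apart. From 19143 to 19311 probes were detected per array, 39.3% on all of them. The number of arrays limits the precision.

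Control and outlier spots were dropped, log2 of the deposited signals was taken and reduced by each array's 75th percentile, and spots of a probe were averaged. A gene's level came from its brightest detected probe. Accessions were matched without versions to RefSeq GRCr8, and 21109 probes were named. A gene with a probe not detected may still be expressed. R 4.3.3, limma 3.58.1 and Python 3.11.15 were used. The variance test was also run on data simulated from its own fitted variances, which cannot show how well that fit holds on these arrays.

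Members and lists were chosen with earlier results of these data known. All members and their probes are named; of each list, the first 3 detected genes get values, and undetected genes are named up to 6, otherwise the first 4. Some genes of the lists are not reported here. Promoter starts are those of RefSeq. Alternatives were other scaling, background correction, detection, probe choice, variance models and leaving out each replicate.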

Additional observations from a re-analysis of the deposited data

Results flagged for a closer look

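In 2 of 62 sets of 4 replicates, 1 replicate stood apart by Dixon's ratio, the gap to the nearest value divided by the range, above the critical value of 0.829. Chance would give 3.1 such sets, or 5% of them.

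The median deviation of the 7 detected factors had a ratio of 0.8872, with replicate 1 at -0.21 and the other replicates at 0.02, 0.05 and 0.03. This median was taken over the brightest detected probe of each gene. In replicate 1 the other probes of Cebpb and Runx1 lay above their means, and those of Mitf and Tfec below. Lck, a T cell kinase, had a ratio of 0.8294, with replicate 1 at -3.69 and the others at -4.10, -4.07 and -4.15.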

How the results depend on the processing

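No paired analysis was possible because the samples form 1 group. The 7 detected factors stayed at 7 under all 8 alternatives of detection, probe choice and replicates, and the genes detected in the related lists at 109 to 123. The 123 is for the looser flag, to which the 52.5% of all named genes does not apply. The variance test called 0 of the factors and 1 gene. With the 75th percentile over all probes it called 1 factor, Mitf, and 9 genes, and with the median over all probes 11 genes. It called 0 genes with quantile normalization, without a filter on detection, without the intensity trend and with the mean over all probes of a gene. Leaving out 1 replicate gave 0 to 1 factors and 0 to 9 genes. The cause was not tested. Mitf had adjusted p-values (limma) from 0.0171 to 0.953 over all alternatives. The largest difference between the Mitf probes was 0.26 to 0.85 with 1 replicate left out, the 0.26 without replicate 2, and 0.86 to 0.92 under the scaling and background alternatives. Testing every named probe, chosen after seeing the data, called 1 of 10858 probes and no factor. The median over all probes moved the median deviation of all genes to -0.06, -0.17, 0.11 and 0.11 in replicates 1 to 4, and that of the factors to -0.28, -0.14, 0.17 and 0.14, so replicate 1 was lowest under each scaling. Its gap divided by the range was past the critical value of 0.829 as reported (0.887) and with normexp (0.90), and not with the 75th percentile over all probes (0.645), the median (0.310) or quantile normalization (0.632). With the 75th percentile or the median over all probes, the levels of all 9 factors moved by at least their SD, because 0 is then another percentile. With quantile normalization 0 of the 9 moved so far. It was 6 with normexp and 3 with the mean over all probes of a gene. Signal over background limits Cebpa, Maf and Irf8.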
